A study of Rattus norvegicus with 23 samples.

Results

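The step from 6 to 12 hours in aggregates kept in sepiapterin was followed by comparing 3 libraries taken at 12 hours (T12) with 3 taken at 6 hours (T6), chosen by their titles from the 23 libraries of the series. All 6 came from 3D aggregates of Sprague Dawley rat brain cells taken at embryonic day 15, a culture in which dissociated brain cells regroup into spheres of neurons and glia, and all received sepiapterin at 120 ng/ml. By the labels all 6 belong to the first of the 2 library batches, so this step in time lies within 1 batch. Control aggregates of the same cells received phosphate-buffered saline (PBS) and were taken at T0, T6, T12 and T24. Their T6 and T12 libraries are used here for the same step without sepiapterin. Whether these control libraries share 1 batch is not stated here, so the control step is not said to be free of batch. The labels do not say that the replicates were separate cultures, so the spread behind the p-values is that of these libraries and may be technical.

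Sepiapterin is a precursor that cells reduce to dihydrobiopterin and then to tetrahydrobiopterin in the salvage route of pterin synthesis. Tetrahydrobiopterin is the cofactor with which tyrosine and tryptophan hydroxylases start the synthesis of dopamine, noradrenaline and serotonin, and with which nitric oxide synthases work. In phenylketonuria a synthetic form of the cofactor is given to raise the activity of phenylalanine hydroxylase. A change between 6 and 12 hours can follow the added compound, the time in culture or both, and the control aggregates are the measure of the time in culture.

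The 6 libraries held 22106299 to 24637779 reads in genes, and 17140 to 17259 genes had reads in each. Over genes at 2 CPM or more, T12 sepiapterin replicates 1 and 2 lay nearest each other, at a root mean square distance of 0.124 log2 units. T12 sepiapterin replicate 3 lay 0.165 and 0.185 from them and 0.220 to 0.276 from the T6 libraries, which differed from each other by 0.141 to 0.164. T6 sepiapterin replicate 3 lay only 0.166 and 0.159 from T12 replicates 1 and 2. Distances between times, 0.159 to 0.276, thus overlapped those within a time. Each pair of replicates differed by more than sampling noise, with a chi-square of 2.49 to 9.32 per degree of freedom over genes. The files name genes by Ensembl identifier and do not pair identifiers with symbols, and 0 of 32494 identifiers matched the reference table, so genes are given by identifier and nothing is said of what they do. For the same reason the labelled brain cell types could not be checked against their marker genes.

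Between 6 and 12 hours 614 of 14035 genes changed in sepiapterin aggregates, 405 higher and 209 lower at 12 hours, by edgeR's quasi-likelihood test with a Benjamini-Hochberg adjusted p below 0.05. That is 4.37% of the genes tested, 2.89% higher and 1.49% lower, and 2969 genes had an unadjusted p below 0.05. The changes were mostly small. The median log2 fold change was 0.32 among the genes that rose and -0.27 among those that fell, against a median absolute change of 0.097 over all genes. A typical 95% interval of a log2 fold change extended 0.17 to either side. The samples are bulk RNA, in which fewer cells of a type and less RNA per cell cannot be told apart.

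Larger changes were more often rises. Of 61 called genes that changed by 1.5-fold or more, 51 rose and 10 fell, and of the 20 that changed 2-fold or more, 15 rose and 5 fell. The 51 that rose had a median level of 4.93 CPM and the 10 that fell one of 0.895 CPM, against 26.7 CPM over all genes tested. At a mean level of 2 CPM or more, 7 genes rose 2-fold and 0 fell by as much.

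How the calls divided between rises and falls depended on the scaling between libraries. With TMM scaling, used for the values above, 66% of the called genes rose. With library size as the only scaling, 282 rose and 397 fell, so that 41.5% rose, and with upper-quartile scaling 319 rose and 280 fell, or 53.3%. The median log2 fold change of all genes was -0.007, -0.033 and -0.020 under these scalings. Among called genes past 1.5-fold, rises were in the majority under each of these scalings, with 51 against 10, 43 against 14 and 46 against 12.

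**Figure D1:**
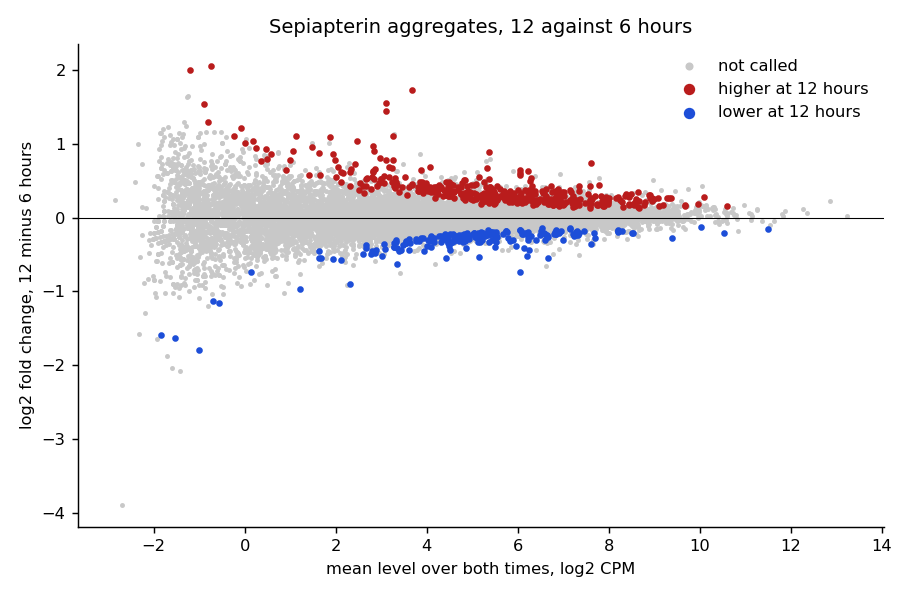
Change from 6 to 12 hours in sepiapterin aggregates for 14035 genes (y axis, log2 fold change, positive means higher at 12 hours) against the mean level over both times (x axis, log2 CPM). Red and blue points are the 405 and 209 genes called higher and lower, and grey points were not called. The largest called changes lie at low levels, and the called genes at high levels changed by little.

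Calls were found at every level of expression. In the lowest of 4 equal classes of genes by level, from 0.169 to 6.35 CPM, 39 genes rose and 16 fell, which is 1.57% of that class, with a median absolute log2 change of 0.775. In the highest class, from 72.6 to 9640 CPM, 152 rose and 49 fell, or 5.73%, with a median absolute change of 0.234. The median standard error (SE) of a log2 fold change went from 0.24 in the lowest class to 0.052 in the highest. The genes that rose took 3.81 to 4.04% of the reads in genes at T6 and 4.50 to 4.79% at T12, and those that fell took 1.85 to 1.95% and 1.55 to 1.64%. These shares describe the genes as they were chosen.

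The number of called genes rested on single libraries. It was 98 without T12 sepiapterin replicate 3, 99 without T6 sepiapterin replicate 1, 145 without T6 sepiapterin replicate 2 and 398 without T12 sepiapterin replicate 1. It was 561 without T6 sepiapterin replicate 3 and 484 without T12 sepiapterin replicate 2. Over the 614 genes, the median ratio of the log2 fold change to its full value ran from 0.882, without T12 sepiapterin replicate 3, to 1.07, without T6 sepiapterin replicate 3. The count also moved with libraries outside the comparison, which enter the same fit. It was 1391 without T0 control replicate 1, which stands apart from the other T0 controls, 1309 without the T0 group and 1481 with T6 and T12 libraries only.

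**Figure D2:**
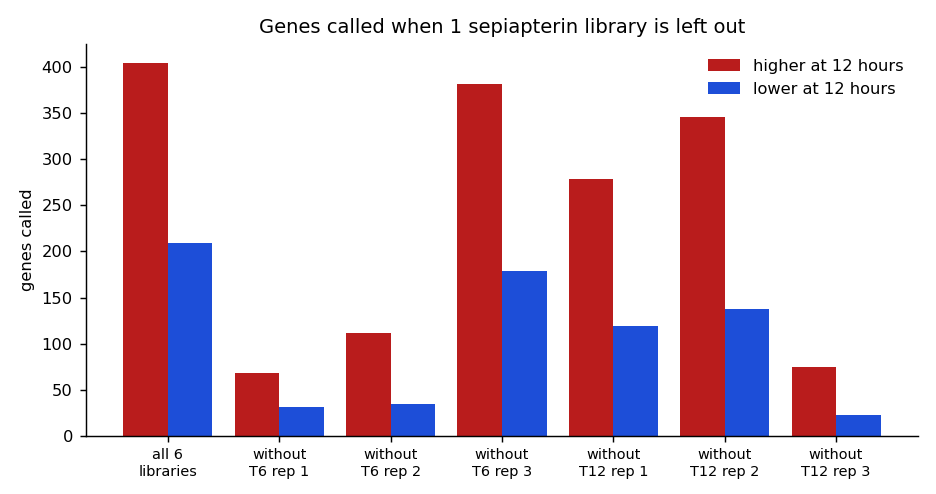
Number of genes called higher (red bars) and lower (blue bars) at 12 hours with all 6 sepiapterin libraries and with each of them left out in turn. The totals fall to 98 without T12 replicate 3 and to 99 without T6 replicate 1.

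T12 sepiapterin replicate 3 was the library farthest from T6 in most of the called genes. It had the highest T12 value in 308 of the 405 genes that rose and the lowest in 146 of the 209 that fell. T12 replicates 1 and 2 were farthest in 38 and 59 of the genes that rose. At T6, replicate 1 had the lowest value in 251 of the genes that rose and the highest in 119 of those that fell. The 3 libraries at T12 all lay above or all below the 3 at T6 for 612 of the 614 genes, and over all genes tested this was so for 15.6% above and 15.3% below.

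The largest rise among called genes with a mean of at least 2 CPM and no overlap between times was that of ENSRNOG00000015354. It stood at 5.35, 6.70 and 5.78 CPM in the T6 sepiapterin replicates and at 17.0, 14.6 and 27.6 CPM in the T12 replicates. Each T12 library was more than double any T6 library, and T12 replicate 3 was the highest. The group means were 5.94 ± 0.69 CPM at T6 and 19.8 ± 6.91 CPM at T12 (SD, n = 3 each), a 3.32-fold rise. The log2 fold change was 1.73, with an SE of 0.31 and an adjusted p of 0.0071, and the call was lost without T6 sepiapterin replicate 1 (adjusted p 0.054). Controls held 6.32 ± 0.07 CPM at T6 and 13.8 ± 2.68 CPM at T12, which is a log2 change of 1.12 (adjusted p 0.056). Those controls do not overlap between times either, and all 3 T6 control libraries lay between 6.26 and 6.40 CPM. The T24 libraries held 18.5 ± 1.65 CPM when treated and 14.1 ± 4.06 CPM as controls.

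ENSRNOG00000013484, the next largest rise, stood at 3.14, 4.65 and 5.25 CPM at T6 and 11.9, 11.4 and 15.0 CPM at T12 with sepiapterin. No library of either time reached the range of the other. The group means, 4.35 ± 1.08 CPM and 12.8 ± 1.94 CPM (SD, n = 3 each), differed 2.94-fold. The log2 fold change was 1.56, with an SE of 0.37 and an adjusted p of 0.031. Its call was lost without T6 sepiapterin replicate 1 or 2, or T12 sepiapterin replicate 1 or 3, with adjusted p-values of 0.15, 0.10, 0.057 and 0.15. The controls went from 5.12 ± 0.70 CPM to 11.8 ± 2.08 CPM, which is a log2 change of 1.20 (adjusted p 0.077). Both genes that rose were uneven at T0, where control replicate 1 held 7.80 and 6.99 CPM and the other T0 controls held 2.96 to 2.99 CPM of ENSRNOG00000015354 and 1.25 to 1.57 CPM of ENSRNOG00000013484.

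The largest fall among called genes with a mean of at least 2 CPM and no overlap between times was that of ENSRNOG00000002266, from 3.35, 2.92 and 2.89 CPM at T6 to 1.68, 1.83 and 1.15 CPM at T12. These values rest on 65 to 79 reads per library at T6 and 28 to 45 at T12. The group means were 3.05 ± 0.26 CPM and 1.55 ± 0.35 CPM (SD, n = 3 each). The log2 fold change was -0.97, with an SE of 0.19 and an adjusted p of 0.005, and the call was lost without T12 sepiapterin replicate 3 (adjusted p 0.055). Its controls held 2.42 ± 0.12 CPM at T6 and 2.73 ± 0.28 CPM at T12, which is a log2 change of 0.17 (adjusted p 0.62). At T24 the level with sepiapterin was 3.21 ± 0.41 CPM, near that of T6.

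ENSRNOG00000005943 stood at 7.18, 7.11 and 5.16 CPM at T6 and at 3.66, 4.75 and 1.98 CPM at T12 with sepiapterin. The times do not overlap, but T6 replicate 3 and T12 replicate 2 lie close to each other. The group means were 6.48 ± 1.15 CPM and 3.46 ± 1.40 CPM (SD, n = 3 each). The log2 fold change was -0.91, with an SE of 0.24 and an adjusted p of 0.041. Without T12 sepiapterin replicate 3 the log2 fold change was -0.63 and the adjusted p 0.20. The call was also lost without T6 sepiapterin replicate 1 or 2 or T12 sepiapterin replicate 1, with adjusted p-values of 0.17, 0.15 and 0.085, with only the 6 libraries compared (0.086), with only T6 and T12 libraries (0.056) and with no filter (0.09). Controls held 7.02 ± 1.13 CPM and then 6.39 ± 1.35 CPM, which is a log2 change of -0.14 (adjusted p 0.78), and the T24 sepiapterin libraries at 7.40 ± 1.00 CPM.

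**Figure D3:**
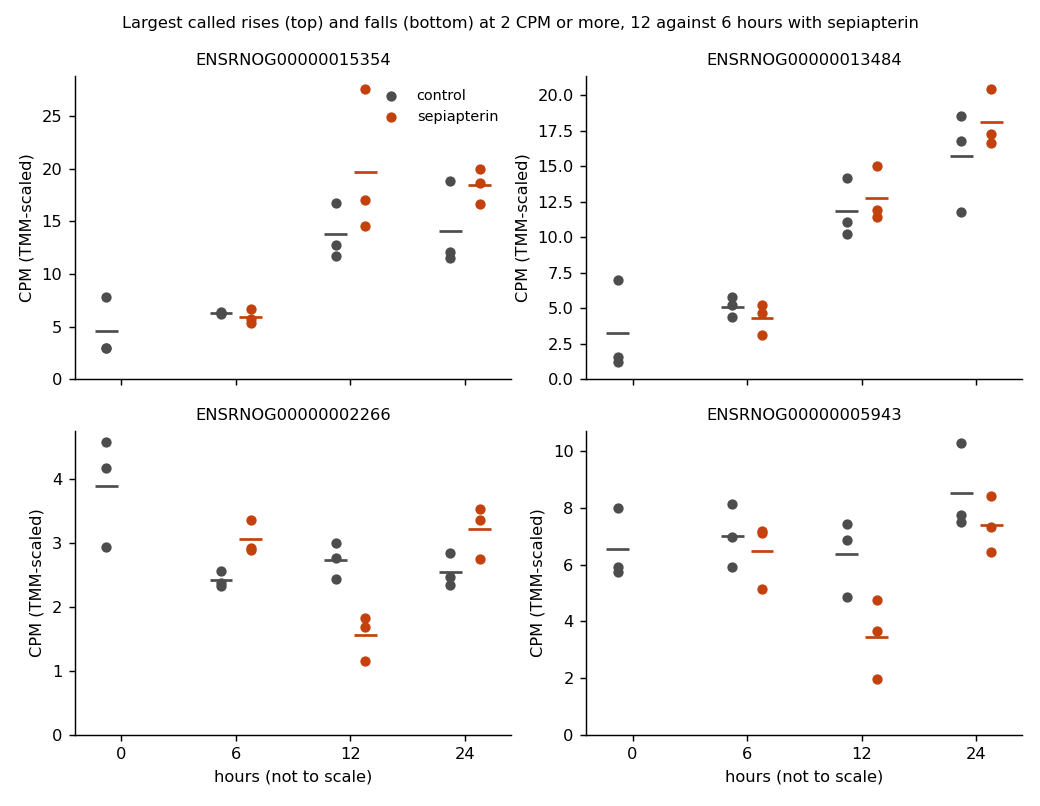
Level of the genes with the largest called rises (top) and falls (bottom) among those with a mean of at least 2 CPM and no overlap between times, in TMM-scaled CPM (y axis, from 0), at 0, 6, 12 and 24 hours (x axis, not to scale). Each point is 1 library, grey for controls and orange for sepiapterin, and the short lines are group means (n = 3). Both genes at the top are higher at 12 than at 6 hours in both treatments, and both genes at the bottom are lowest in the T12 sepiapterin libraries, at means of 1.55 and 3.46 CPM.

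The same step in control aggregates shares no library with the sepiapterin step. The T12 controls of samples 10 and 11 each have a second library, and for these 4 libraries the titles and the headers inside the files disagree on which is the repeat, so values are given by title and by header. By title 655 genes changed in controls (4.67% of genes tested, 2.79% higher and 1.87% lower), and by header 167 (1.19%, 0.784% higher and 0.406% lower). Leaving out any 1 of the 6 control libraries moved the count by title by over 1.5 times, to between 77 and 1398.

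Most genes that changed with sepiapterin moved the same way in controls. Of the 405 genes that rose, 382 (94.3%) had a positive log2 fold change in controls by title, where 49.2% of all genes did, and 379 (93.6%) by header. Of the 209 that fell, 195 (93.3%) had a negative one by title, where 50.8% of all genes did, and 201 (96.2%) by header. In controls by title 115 of the 405 and 52 of the 209 also passed the test in the same direction, which is 28.4% and 24.9% of these genes and 29.3% and 19.8% of the genes called that way in controls. By header the counts were 59 and 19, or 14.6% and 9.09% of the sepiapterin genes and 53.6% and 33.3% of the control genes. None of the 614 passed the test in the opposite direction under either grouping.

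The control changes of these genes were smaller in size. The 405 genes had a median log2 fold change of 0.18 in controls by title and 0.17 by header, against 0.32 with sepiapterin, and the 209 had -0.16 and -0.14 against -0.27. The genes were chosen by the sepiapterin values, which therefore run high. Read the other way, the 392 genes that rose in controls by title had a median of 0.24 there and 0.13 with sepiapterin, and the 263 that fell had -0.28 and -0.16. In each direction of reading, the set was thus larger in the libraries that chose it. Over all 14035 genes the log2 fold changes of both steps had a Pearson correlation of 0.33 and a Spearman correlation of 0.41 by title, and 0.35 and 0.41 by header. These correlations are across genes of the same libraries, and genes are not independent replicates.

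**Figure D4:**
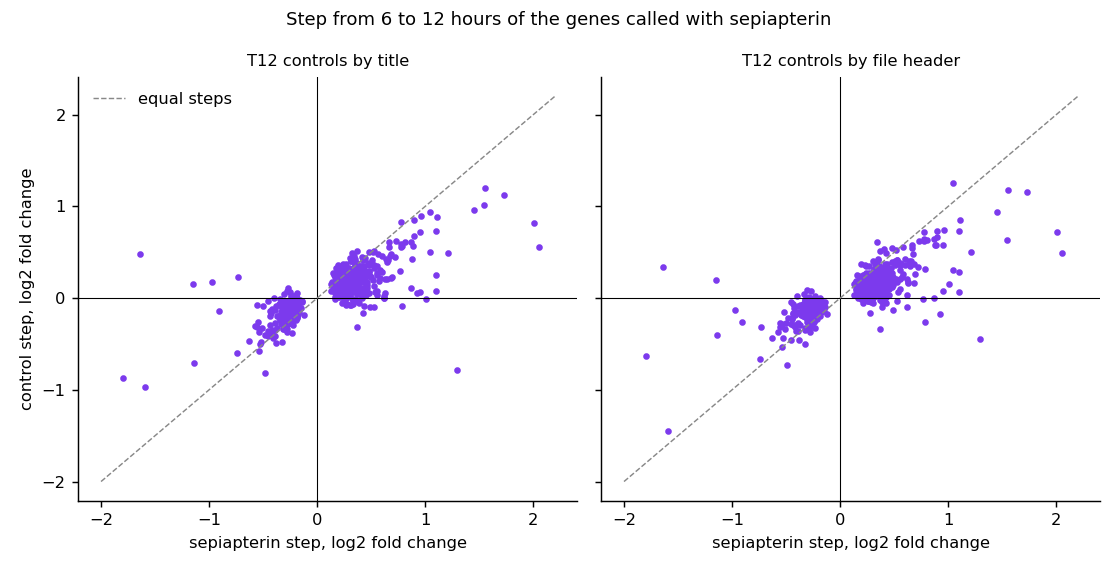
Log2 fold change from 6 to 12 hours in control aggregates (y axis) against that in sepiapterin aggregates (x axis) for the genes called with sepiapterin, with T12 controls taken by title (left) and by file header (right). The dashed line marks equal steps. Most points lie in the quadrants of equal sign, and most are nearer to 0 in controls.

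The difference between the steps was tested directly, as the sepiapterin step minus the control step. With edgeR over the 7 groups no gene passed, by title or by header. By title 1049 of 14035 genes had an unadjusted p below 0.05 and the smallest adjusted p was 0.66, and by header 879 of 14027 with a smallest adjusted p of 0.24. DESeq2 called 0 genes and limma voom with quality weights 8. A typical 95% interval of the difference extended 0.24 log2 units to either side. For ENSRNOG00000002266 the difference was -1.15 ± 0.26 (SE), with an interval of -1.70 to -0.59 and an adjusted p of 0.66, and by header it was -0.84 (adjusted p 0.79). For ENSRNOG00000015354 it was 0.61, with an interval of -0.35 to 1.56 (adjusted p 0.77). For ENSRNOG00000013484 it was 0.36, with an interval of -0.78 to 1.5 (adjusted p 0.90), and for ENSRNOG00000005943 it was -0.77, with an interval of -1.48 to -0.05 (adjusted p 0.67). These genes were picked by the size of their sepiapterin step, which is a part of the difference, so their differences run high in size. The intervals are for single genes and are not adjusted for the number of genes tested.

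With the T6 and T12 libraries only, 2 genes differed between the steps by title, both with the higher step in sepiapterin. They are named here after their values were seen. ENSRNOG00000017060 stood at 34.9, 38.4 and 41.1 CPM at T6 and 50.9, 52.7 and 44.3 CPM at T12 with sepiapterin. In controls it stood at 45.0, 45.8 and 43.1 CPM at T6 and at 33.0, 34.8 and 40.1 CPM at T12. It was thus higher at 12 hours in all sepiapterin libraries and lower in all control libraries, a difference of 0.68 ± 0.11 (SE) with an adjusted p of 0.026. This gene is also among the 405 that rose with sepiapterin (log2 fold change 0.37, adjusted p 0.044).

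ENSRNOG00000006645 stood at 35.8, 35.4 and 38.5 CPM at T6 and at 40.4, 43.2 and 36.9 CPM at T12 with sepiapterin, which overlap. In controls it went from 38.2, 41.2 and 37.7 CPM to 28.3, 29.0 and 31.2 CPM, and the difference was 0.54 ± 0.09 (SE, adjusted p 0.026). The libraries titled as repeats, at 30.9 and 27.9 CPM of this gene and 33.2 and 33.1 CPM of ENSRNOG00000017060, lie close to the T12 controls they repeat. By file header the fit of T6 and T12 libraries gave adjusted p-values of 0.0495 for ENSRNOG00000006645 and 0.0537 for ENSRNOG00000017060. Over the 7 groups both had an adjusted p of 0.66, with the same differences of 0.54 and 0.68.

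The called genes were then read in the other groups. Relative to the mean of the T6 sepiapterin libraries, the 405 genes that rose averaged 0.35, 0.33 and 0.47 log2 units higher in T12 sepiapterin replicates 1, 2 and 3, and 0.23 to 0.31 higher in T12 controls. T6 controls lay 0.01 to 0.09 higher. The 209 genes that fell averaged -0.29, -0.28 and -0.39 in the T12 sepiapterin libraries, -0.24 to -0.20 in T12 controls and -0.06 to -0.02 in T6 controls. By title, T12 libraries of both treatments lay beyond all T6 libraries in both sets, and sepiapterin libraries lay beyond the controls at T12. The genes were chosen by the T6 and T12 sepiapterin libraries, which that choice sets apart. Their place beyond the T12 controls is therefore no measure of a larger step with sepiapterin.

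At T24, which was prepared in the other batch so that time and batch cannot be told apart, the genes that rose averaged 0.30 to 0.38 with sepiapterin and 0.25 to 0.36 in controls. Of the 405, the T24 sepiapterin mean lay beyond the T12 sepiapterin mean for 173, between the T6 and T12 means for 217 and on the T6 side for 15. Of the 209 that fell, these counts were 80, 100 and 29. For the T24 control mean they were 149, 229 and 27 of the 405 and 75, 108 and 26 of the 209. The T6 and T12 sepiapterin values that bound these positions also chose the genes, so the distance between them runs high. The genes that fell averaged -0.25 to -0.18 at T24 with sepiapterin and -0.25 to -0.20 in controls. In no T24 library did the average of either set lie within the range of the T6 libraries.

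**Figure D5:**
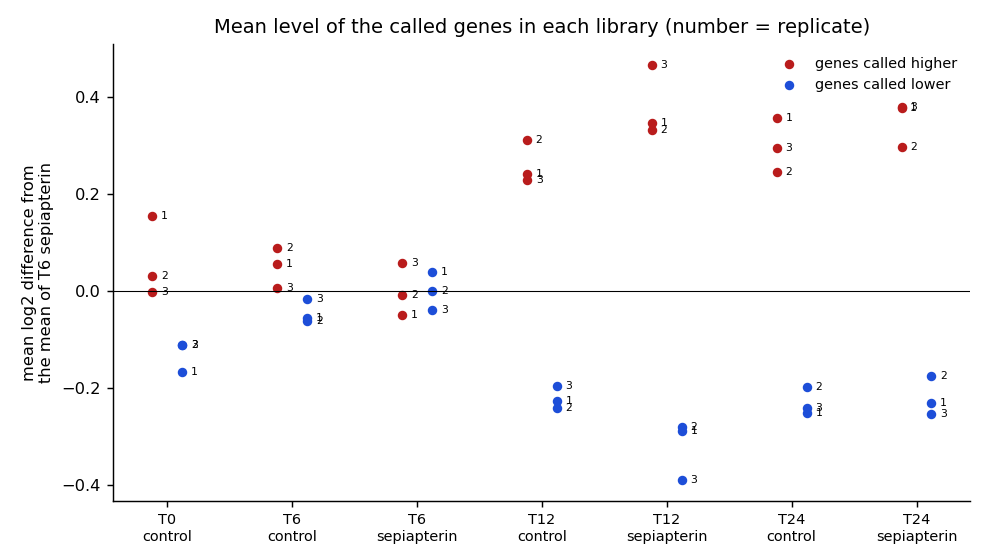
Mean log2 difference from the mean of the T6 sepiapterin libraries (y axis) of the 405 genes called higher (red) and the 209 called lower (blue), for each of 21 libraries by group (x axis), with the replicate number beside each point. The genes were chosen by the T6 and T12 sepiapterin libraries. T12 sepiapterin replicate 3 is farthest from 0 in both sets, at 0.47 and -0.39.

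The first 6 hours were read from controls at T6 and T0, which share no library with the sepiapterin step. The sources used here do not give the batch of T0. There 3035 genes changed (21.6% of genes tested, 10.9% higher and 10.7% lower at T6). Of the 405 genes that rose from 6 to 12 hours with sepiapterin, 84 (20.7%) had fallen from T0 to T6 in controls and 44 (10.9%) had risen. Of the 209 that fell, 66 (31.6%) had risen before and 20 (9.57%) had fallen. On the log2 scale, the 405 averaged 0.15 above the T6 sepiapterin mean in T0 control replicate 1, 0.03 above it in replicate 2 and -0.003 from it in replicate 3, while the T6 controls averaged 0.01 to 0.09 above it. Without T0 control replicate 1, an alternative chosen after seeing the data, 3200 genes changed early (22.6% of genes tested, 12% higher and 10.6% lower). Of the 405, 73 (18%) had then fallen and 68 (16.8%) had risen, so the difference between the directions seen with all T0 libraries rests on that library. Of the 209, 61 (29.2%) had then risen and 24 (11.5%) had fallen. The called genes have a median level of 40.3 CPM against 26.7 CPM over all genes, and a part of level in these shares was not tested.

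The genes with the largest early changes were read in the same way, with all T0 libraries. Among 42 genes that rose at least 2-fold from T0 to T6 in controls, 6 (14.3%) rose and 1 (2.38%) fell from 6 to 12 hours with sepiapterin, where 2.89% and 1.49% of all genes did, and their median log2 fold change in that step was 0.04. Among 32 genes that fell at least 2-fold, 1 (3.12%) rose and 0 fell, close to the shares of all genes, with a median of 0.04. Over all 1532 genes that rose early the median was -0.04, with 61.6% negative, and over all 1503 that fell early it was 0.03, with 57.5% positive.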

How the data were processed

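Libraries were stranded mRNA libraries prepared from 500 ng of RNA, per the labels' protocols. The authors deposited raw read counts per Ensembl gene, 1 table per library, with 32494 identifiers and 5 summary lines. The submitters' processing notes name cutadapt 1.8, STAR 2.5.2b and HTSeq 0.6.1 and the rat build Rnor_6.0. The strand setting and the annotation behind the counts were not given in the sources used here. Overlapping and near-identical genes are therefore uncertain. Library sizes and tests used gene rows only. In the 6 libraries compared, the summary lines held 16.0 to 16.7% of all tallied alignments as outside genes, 23.5 to 24.2% as not unique and 0.22 to 0.25% as ambiguous.

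Groups were taken from titles. One edgeR 4.0.16 fit (R 4.3.3, quasi-likelihood, robust, TMM scaling, filterByExpr with a minimum count of 10) covered 21 libraries in 7 groups of 3, with 14 residual degrees of freedom, and left out the 2 libraries titled as repeats. It gave the sepiapterin step, the control step and their difference. SEs were derived from the log2 fold change and the F value of the test, and intervals used the 14 residual degrees of freedom. The p-values rest on the test's own degrees of freedom, so intervals and p-values need not match. Benjamini-Hochberg adjustment ran over all genes tested, and a gene was called below 0.05. CPM are TMM-scaled. Log2 values per library used a prior count of 2, and positions between group means a pseudocount of 0.5 CPM. The scripts were tested on simulated data. Alternatives were other scalings, filters, thresholds and sets of libraries, DESeq2 1.42.0, and limma 3.58.1.

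Members and lists were chosen with earlier results of these data known. The rule for named genes took called genes with no overlap between times and a mean log2 CPM of at least 1, by size of change. As 0 identifiers matched a symbol in the reference table (47357 genes, assembly GRCr8), the 29 gene lists were not tested, no sequence could be assigned, and 2 genes that rose and 2 that fell are named. The genes named for a different step were chosen after their values were seen.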

Additional observations from a re-analysis of the deposited data

Results flagged for a closer look

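The step from 6 to 12 hours differed between sepiapterin and control aggregates in 2 genes when edgeR was fitted to the T6 and T12 libraries only, with T12 controls by title. The difference was 0.68 log2 units for ENSRNOG00000017060, where all 3 sepiapterin libraries were higher at 12 hours and all 3 control libraries lower, and 0.54 for ENSRNOG00000006645, where the control libraries were lower and the sepiapterin libraries overlapped between times. Both had an adjusted p of 0.026 in that fit and of 0.66 in the fit over the 7 groups. By file header the first fit gave 0.0537 for ENSRNOG00000017060 and 0.0495 for ENSRNOG00000006645. At T6 the mean of ENSRNOG00000017060 was already lower with sepiapterin, at 38.1 against 44.6 CPM in controls. At T24, in the other batch, its means were 44.4 ± 6.19 and 45.9 ± 7.11 CPM (SD, n = 3 each). Those of ENSRNOG00000006645 were 31.5 ± 4.07 and 33.5 ± 6.88 CPM.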

How the results depend on the processing

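Each alternative was set against 614 genes for the sepiapterin step, 0 for the difference between steps and 655 for the control step. Limma voom with quality weights called 2070, 8 and 2754 genes. Fits of only the groups compared called 1035, 2 and 1523, and fits of only T6 and T12 libraries 1481, 2 and 1440. For the difference between steps these are the same fit. With T12 controls by file header, added after seeing the data, the fit of T6 and T12 libraries called 1909, 2 and 816. Of its 2 genes for the difference, 1 was among the 2 by title. Without the T0 group the sepiapterin and control steps had 1309 and 1259 genes, with an adjusted p below 0.01 they had 137 and 105, and with one below 0.1 they had 1255 and 1375. The control step by file header had 167. Without T0 control replicate 1, added after seeing the data, the sepiapterin step had 1391 genes, and without the T12 controls, also added, 545. Leaving out single libraries gave 98 to 561 genes for the sepiapterin step, 77 to 1398 for the control step and 0 to 2 for the difference, where the 2 came without T12 control replicate 3 and were not among the 2 from T6 and T12 libraries only. The cause of these shifts was not tested. Library size alone, upper-quartile scaling, DESeq2 (748 genes in the sepiapterin step), no filter and a stricter filter stayed within 1.5 times of each count, with 0 for the difference. Over 21 alternatives, calls of the genes named for the sepiapterin step were kept in 20 for ENSRNOG00000015354 (adjusted p 5.2e-05 to 0.054), 16 for ENSRNOG00000013484 (6.7e-06 to 0.15), 20 for ENSRNOG00000002266 (0.00036 to 0.055) and 13 for ENSRNOG00000005943 (0.0041 to 0.2). The 21 include the thresholds of 0.01 and 0.1 on the main fit, whose outcomes follow from the main adjusted p-values. The early control step without T0 control replicate 1, added after seeing the data, had 3200 genes. No paired analysis was made, because the titles carry sample numbers that no groups share and no label gives them a pairing. Whether the order of these numbers reflects a pairing was not tested. The median SE of a log2 fold change was 0.24 in the lowest class of genes by level and 0.052 in the highest.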
